A study of Mus musculus with 44 samples.

Results

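Untreated bone marrow-derived macrophages lacking the DNA methyltransferase Dnmt3a (KO) were compared with untreated wild type (WT) macrophages by the peaks deposited for NF-kB ChIP-seq. A peak is a listed position, and whether NF-kB was bound there was not tested. The members are the peaks of the 2 deposited NF-kB lists of untreated cells: 3065 peaks in KO and 1462 in WT, together 4527 of the 15489 peaks in the 8 lists of the series. A peak was called shared when it overlapped a peak of the other genotype by at least 1 bp, and otherwise KO-only or WT-only. By that rule 2063 KO peaks were KO-only (67.3%, interval 65.6 to 69.0%) and 1002 were shared. In the WT list 1026 peaks were shared and 436 were WT-only (29.8%, 27.5 to 32.2%). Overlap was nearly 1 to 1, so the longer KO list leaves the larger unshared remainder by construction. With both lists cut to their 1462 best-ranked peaks, 50.7% of KO and 53.6% of WT peaks were shared.

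Both groups were macrophages of C57BL/6 background, grown from marrow with 30 ng/ml M-CSF and 10% serum, collected between day 8 and day 10, and given no lipopolysaccharide (LPS). The KO group differed by the loss of Dnmt3a. Each group has 3 ChIP samples, and its list merges them. Other groups of the series, used here only as further lists, were precipitated for IRF3 or received 10 ng/ml LPS for 6 hours. The labels used here do not say how Dnmt3a was deleted, which NF-kB subunit the antibody recognised or whether samples came from separate animals. The deletion cannot be checked in a list of peaks. A merged list has no spread between samples, so no difference below was tested, and intervals are exact Clopper-Pearson 95% intervals that cover counting error only. Fewer cells with a bound site and less factor on it in each cell cannot be told apart.

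NF-kB is a family of dimeric transcription factors that inhibitors of the IkB family hold in the cytoplasm of resting macrophages. Pattern recognition receptors, among them the Toll-like receptors, activate kinases that remove the inhibitor, and NF-kB then binds short GC-flanked sites in the promoters and enhancers of inflammatory genes. Dnmt3a places methyl groups on cytosines of CpG dinucleotides, mostly at sites that were unmethylated before. DNA methylation silences transposable elements and 1 parental allele of imprinted genes, and it can alter the binding of transcription factors whose sites hold a CpG. Peaks without LPS therefore concern the state before the stimulus.

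The peak lists hold positions and no sequence, so sequences are shown for the annotated promoters that a peak covered. RefSeq promoter windows on GRCm38.p6, each from 250 bases before to 50 after a transcription start, numbered 32851. Only 17 lay under a KO peak and 7 under a WT peak, and 18 lay under a peak of either list. Among the 21262 windows of protein-coding genes, 3 lay under a KO peak and 2 under a WT peak. The coding windows under KO peaks belonged to Commd1, Pla2g4c and Elobl. Those under WT peaks belonged to Elobl and Gm38704. The 4 windows below show the kinds of sequence found. The first is the window of an internal annotated start of Commd1, the gene of a known NF-kB regulator, under a KO-only peak. The others are repeated windows under a KO-only, a shared and a WT-only peak. Capitals mark the pattern GGGNNNNNCC, a loose form of the NF-kB motif, in the first window. In the others they mark a first stretch that recurs along the window and can itself hold several copies of a shorter unit.
Commd1 (KO-only, chr11:22972817-22973116, minus strand): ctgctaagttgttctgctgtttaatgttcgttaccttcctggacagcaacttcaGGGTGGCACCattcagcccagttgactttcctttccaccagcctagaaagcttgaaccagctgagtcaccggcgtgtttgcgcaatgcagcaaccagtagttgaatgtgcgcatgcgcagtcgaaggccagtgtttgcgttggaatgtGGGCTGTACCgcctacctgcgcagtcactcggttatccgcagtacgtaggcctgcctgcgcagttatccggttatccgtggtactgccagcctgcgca
Gm42309 (KO-only, chr4:83842002-83842301, minus strand): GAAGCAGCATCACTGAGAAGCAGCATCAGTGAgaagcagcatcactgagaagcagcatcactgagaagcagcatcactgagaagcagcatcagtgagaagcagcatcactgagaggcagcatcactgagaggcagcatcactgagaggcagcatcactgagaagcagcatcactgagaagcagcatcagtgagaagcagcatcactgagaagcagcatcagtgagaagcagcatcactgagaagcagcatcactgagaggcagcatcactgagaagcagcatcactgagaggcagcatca
Gm46287 (shared, chr11:72765233-72765532, plus strand): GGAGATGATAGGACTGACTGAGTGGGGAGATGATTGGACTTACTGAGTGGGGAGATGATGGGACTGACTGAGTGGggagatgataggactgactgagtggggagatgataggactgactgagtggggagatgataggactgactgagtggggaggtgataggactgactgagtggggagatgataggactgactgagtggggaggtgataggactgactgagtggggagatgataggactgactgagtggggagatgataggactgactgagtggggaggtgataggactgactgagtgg
Gm38704 (WT-only, chr12:20084782-20085081, plus strand): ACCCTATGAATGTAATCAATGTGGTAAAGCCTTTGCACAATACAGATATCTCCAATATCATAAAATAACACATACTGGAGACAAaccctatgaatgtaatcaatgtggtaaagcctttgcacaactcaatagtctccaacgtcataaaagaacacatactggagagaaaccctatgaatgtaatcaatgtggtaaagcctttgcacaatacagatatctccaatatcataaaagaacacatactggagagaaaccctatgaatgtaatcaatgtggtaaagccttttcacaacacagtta

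The Commd1 window had 2 matches to GGGNNNNNCC, searched on both strands and with overlapping matches kept, and its 17 CpG dinucleotides stood against a median of 13 in coding windows. This pattern is short and common: 57.1% of coding windows and 50.8% of all windows held a match, so its presence here is a description of the letters only. COMMD1 is known as a factor that ends NF-kB activity by promoting removal of the RelA subunit. The KO-only peak over this window spanned 1075 bp (chr11:22972140-22973214), ranked 1696 of 3065 in the KO list and had a deposited q-value of 0.498. It was also present in the KO NF-kB list with LPS and in no other list, and the nearest untreated WT peak lay 4640036 bp away. The same peak lay inside Zrsr1, starting 135 bp downstream of the Zrsr1 start. Zrsr1 sits within Commd1, and the Commd1 start of this window (position 22972866) lies inside Zrsr1 (22972005-22976496). The window is therefore at an internal start of Commd1, and the outermost start lies elsewhere. Zrsr1 is imprinted in mice: its promoter is methylated on the maternal allele and the paternal allele is expressed. Methylation at this position was not analysed here.

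The 3 other printed windows are repetitive, and the capitals are as long as the shift at which each matched itself best. Shifted by 32 bases the Gm42309 window matched itself at 96.3% of positions, the Gm46287 window at 97.3% when shifted by 75 bases, and the Gm38704 window at 90.3% when shifted by 84 bases. A window of Gm40237 under a shared peak matched itself at 97.6% when shifted by 88 bases. Of the 18 windows under a peak, these 4 (22.2%) matched themselves at 80% or more for some shift of 10 to 150 bases. In all 32851 windows together 18 did so (0.0548%), and 4 of those are the ones under a peak. The measure was chosen after the sequences had been seen, and it describes these windows only.

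Sequence was also repeated between windows. The windows of Gm33458 (chr2:56801255-56801554, minus strand) and Gm52195 (chr15:103410384-103410683, plus strand), each at the edge of a KO peak whose position was in all 8 lists, hold the same run of 57 bases across the start.
Gm33458 and Gm52195, shared run: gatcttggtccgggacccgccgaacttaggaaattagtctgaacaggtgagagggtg
Of the 18 windows, 14 (77.8%) belonged to genes that are not protein-coding, against 35.3% of all windows. A run of 30 bases found in the windows of at least 3 other genes occurred in 3 of the 18 (16.7%), which included Pla2g4c, and in 6.25% of all windows.

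Sharing followed the rank of a peak within its list, where rank 1 has the smallest deposited p-value. Among the 50 best-ranked peaks, 47 in KO (94.0%, 83.5 to 98.7%) and all 50 in WT (100%, 92.9 to 100%) were shared. At ranks 201 to 400 the shares were 75% in KO and 88.5% in WT, and at ranks 801 to 1462 they were 30.2% in KO and 54.4% in WT. The KO list continued past the end of the WT list, and of its peaks at ranks 2201 to 3065 only 13.6% were shared. The best-ranked KO-only peak held rank 1 of its list, whereas the best-ranked WT-only peak held rank 116. KO peaks were set against 1462 WT peaks and WT peaks against 3065 KO peaks. A longer opposite list gives more to overlap, so the shares of the 2 genotypes are not on an equal footing.

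**Figure D1:**
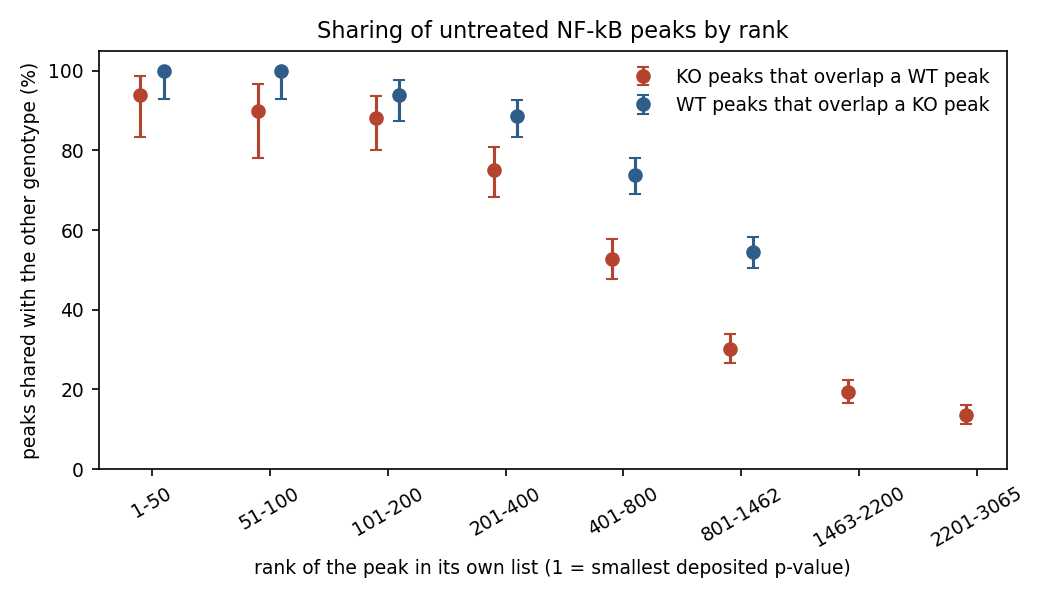
Share of untreated NF-kB peaks that overlapped a peak of the other genotype (percent, vertical axis) by rank of the peak in its own list (horizontal axis), for KO (red) and WT (blue); bars are exact 95% intervals for counting error. The share is 94.0% in KO and 100% in WT at ranks 1 to 50 and 30.2% in KO and 54.4% in WT at ranks 801 to 1462.

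Peaks with a deposited q-value under 0.05 were mostly shared. There were 422 in KO and 135 in WT, and set against the whole list of the other genotype 340 of the KO peaks (80.6%, 76.5 to 84.2%) and 132 of the WT peaks (97.8%, 93.6 to 99.5%) overlapped one. That left 82 KO-only and 3 WT-only peaks under this q-value. The KO list has more peaks under this q-value and is the longer list to overlap, so these counts are not on an equal footing. When both lists were first reduced to q-values under 0.05, 312 KO peaks and 25 WT peaks stood alone. When both were reduced to their 1462 best-ranked peaks, 721 KO peaks and 679 WT peaks stood alone. Lists of equal length whose peaks overlap nearly 1 to 1 leave nearly equal remainders by construction, so these counts do not bear on the genotypes.

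Unshared peaks were narrow in both genotypes. The median width was 726 bp for KO-only peaks (quartiles 355 and 1178.5 bp) and 665 bp for WT-only peaks (271.75 and 1184.25 bp). Shared peaks had a median width of 1606 bp in the KO list and 1405.5 bp in the WT list. Peaks under 500 bp made up 34.4% of KO-only peaks and 40.4% of WT-only peaks, against 6.29% of shared peaks in KO and 10.8% in WT. Among peaks under 250 bp, 5.43% in KO and 30.4% in WT were shared, and among peaks of 4000 bp or more, 83.6% in KO and 95.8% in WT. A wider peak has more room to be overlapped, and the part of that in these shares was not tested.

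**Figure D2:**
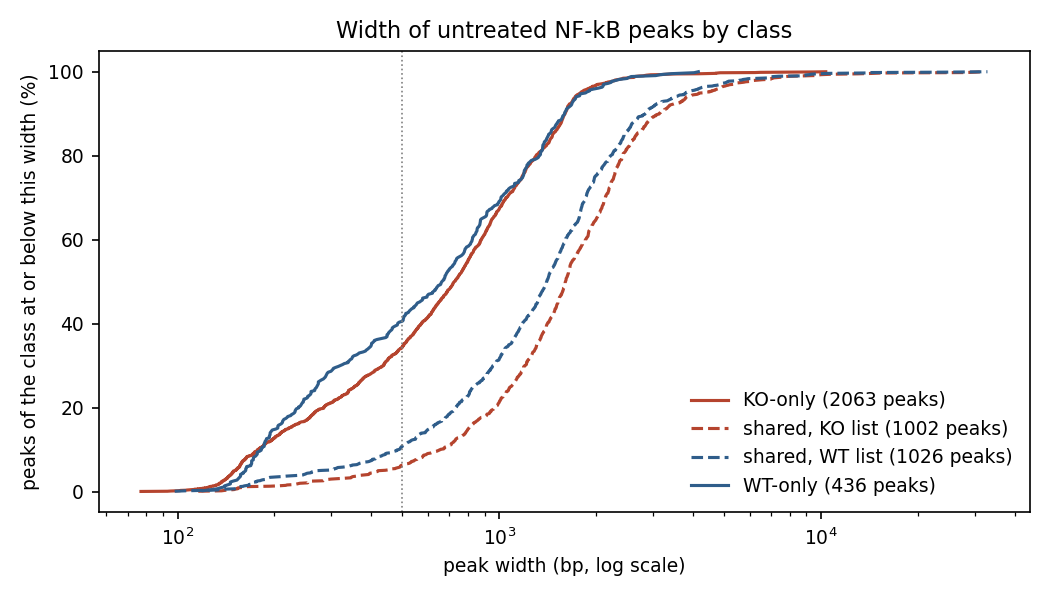
Cumulative share of peaks (percent, vertical axis) up to a given width (bp, log axis) for KO-only peaks (red, solid), shared peaks of the KO list (red, dashed), shared peaks of the WT list (blue, dashed) and WT-only peaks (blue, solid); the dotted line marks 500 bp. The unshared classes lie together at medians of 726 bp (KO-only) and 665 bp (WT-only), left of the shared classes at 1606 bp (KO) and 1405.5 bp (WT).

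At positions held by both genotypes the KO peak was mostly the wider one. Of 876 peaks that paired 1 to 1, the KO peak was wider in 633 (72.3%) and the WT peak in 243. Median widths in these pairs were 1658 bp in KO and 1500 bp in WT, and the median ratio of KO over WT was 1.11. The centres of paired peaks lay a median of 103.5 bp apart. Across the 876 pairs, widths had a Spearman rho of 0.82 and ranks a rho of 0.55, where the points share the same libraries. The deposited signal value had a median of 14.4 in KO and 12.1 in WT, on a scale of unknown normalization. In 58 cases 1 KO peak spanned at least 2 WT peaks, and in 34 cases 1 WT peak spanned at least 2 KO peaks.

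Few assignments rested on an overlap or a gap of about 100 bp or less. Only 7 shared KO peaks were overlapped over less than 100 bp, the smallest overlap being 23 bp, and 9 KO-only peaks had a WT peak within 100 bp. A rule of overlap over at least 50% of both peaks changed more. Shared KO peaks then numbered 831 against 1002, and WT-only peaks 631 against 436. The median KO-only peak lay 529608 bp from the nearest WT peak, and 1676 (81.2%) lay more than 100 kb from one. The median WT-only peak lay 208019 bp from the nearest KO peak, and 290 (66.5%) lay more than 100 kb from one. The KO list holds more peaks, which by itself brings KO peaks closer to any position.

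The best-ranked KO-only peak spanned 4717 bp near Sfi1, which encodes a centrin-binding protein of the centrosome (chr11:3100019-3104735, 27114 bp from the gene). Its q-value was 2.41e-09, and the nearest untreated WT peak lay 7770 bp from it. Rank 10 fell at Gm21119 (3351 bp, q-value 1.78e-05, chr8:20646761-20650111), where the position was also in all other 6 lists. Rank 19 fell in Smo, which encodes the Hedgehog signal transducer Smoothened (1183 bp, q-value 7.64e-05, chr6:29747939-29749121), with the nearest WT peak 3542531 bp away. Rank 81 fell in Eef2, which encodes a translation elongation factor (1418 bp, q-value 0.00162). All 4 positions were present in the WT NF-kB list with LPS.

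Further KO-only peaks among the 10 best lay near Sox17, which encodes a transcription factor of endoderm and endothelium, and Gm16506. Others lay in Morc1, which encodes a germ cell protein that represses transposons, in Ttc39c and near Tmem18. Their ranks ran from 95 for Sox17 to 201 for Tmem18, with q-values of 0.00222 and 0.0130. The Tmem18 peak was the narrowest but 1 of the 10 at 379 bp, lay 5391 bp from the gene and was found in 1 other list, the untreated KO IRF3 list. The Gm16506 peak spanned 157 bp. Of the positions named here, those at Sox17 and Morc1 were in the WT NF-kB list with LPS. A gene is named here as the nearest to the peak within 100 kb, and nothing was measured on its activity.

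The best-ranked WT-only peaks had larger q-values. They lay in Zfp600, a zinc finger gene (rank 116 of 1462, q-value 0.0332, 1066 bp), and near Olfr108, an odorant receptor gene (rank 129, q-value 0.0449, 1873 bp). Next came peaks 55750 bp from Spock3 (rank 161) and 54398 bp from Cdc42bpa, which encodes a kinase acting on the actin cytoskeleton (rank 177). Others lay 81894 bp from Pth2r, which encodes a parathyroid hormone family receptor (rank 192), and 3915 bp from Pank3, which encodes a pantothenate kinase (rank 226). The list of 10 ended with Crygf, Ust, Vmn2r92 and Gm7592, at ranks 239 to 311. The positions near Olfr108, Pank3 and Crygf were in all other 6 lists, those of KO cells included. The 4 positions named for Pth2r, Ust, Vmn2r92 and Gm7592 were in none.

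Shared peaks with the best KO ranks are named by the nearest gene, with the distance to it. They were Vmn1r2 (KO rank 2, WT rank 1, 80935 bp), Zfp825 (KO rank 3, WT rank 32, 34467 bp) and 9230019H11Rik (KO rank 4, WT rank 2, 2757 bp). Gm39469 (rank 5 in KO and in WT, 9906 bp), Scaf8 (KO rank 6, WT rank 86, 81019 bp) and Tmem125 (KO rank 8, WT rank 1127, 2226 bp) followed. The Vmn1r2, 9230019H11Rik and Scaf8 peaks start at chr4:3089544, chr10:3109538 and chr17:3006068 in KO. The Scaf8 peak spanned 27885 bp in KO and 9218 bp in WT. The Tmem125 peak, over the repeated Gm40237 window, spanned 1535 bp in KO and 403 bp in WT. The positions named for Vmn1r2, Zfp825, 9230019H11Rik and Scaf8 were in all other 6 lists, those of IRF3 included. So were 361 of the 1002 shared KO peaks (36.0%), against 1.70% of KO-only and 3.21% of WT-only peaks.

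Whether a position listed in 1 genotype without LPS recurs was read from the other 6 lists, which the rule did not use. The series holds 1 input sample per genotype and treatment. Whether the NF-kB and IRF3 lists of a group share it is not recorded, so they may not be independent. Of the 2063 KO-only peaks, 986 (47.8%, 45.6 to 49.98%) overlapped a peak of another KO list and 852 (41.3%, 39.2 to 43.5%) overlapped a peak of another WT list. Of the 436 WT-only peaks, 179 (41.1%, 36.4 to 45.8%) overlapped a peak of another KO list and 193 (44.3%, 39.5 to 49.1%) a peak of another WT list. None of the other 6 lists held 843 of the KO-only peaks (40.9%) and 186 of the WT-only peaks (42.7%). Among shared peaks of the KO list 4.29% were in none of them.

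By list, KO-only peaks were found in the KO NF-kB list with LPS at 29.7% and in the WT NF-kB list with LPS at 33.5%. The WT list with LPS therefore held 692 positions that the untreated lists give to KO alone. WT-only peaks were found in these lists at 28.9% (KO) and 29.8% (WT). For IRF3 without LPS the genotypes lay apart: 25.5% (23.6 to 27.4%) of KO-only peaks were in the KO list and 9.11% (7.91 to 10.4%) in the WT list, a ratio of 2.8, where the KO list is 1.46 times as long. For shared peaks of the KO list the same shares were 72.9 and 56.1%, a ratio of 1.30. WT-only peaks were in the untreated IRF3 list of KO at 17.9% and of WT at 19.04%. With LPS, 25.4% of KO-only peaks were in the KO IRF3 list and 15.7% in the WT IRF3 list, with a list length ratio of 1.26. Untreated KO IRF3 merges 2 samples and untreated WT IRF3 merges 3, and the part of that in these shares was not tested. The part of an input that lists of the same genotype and treatment may share was not tested either.

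**Figure D3:**
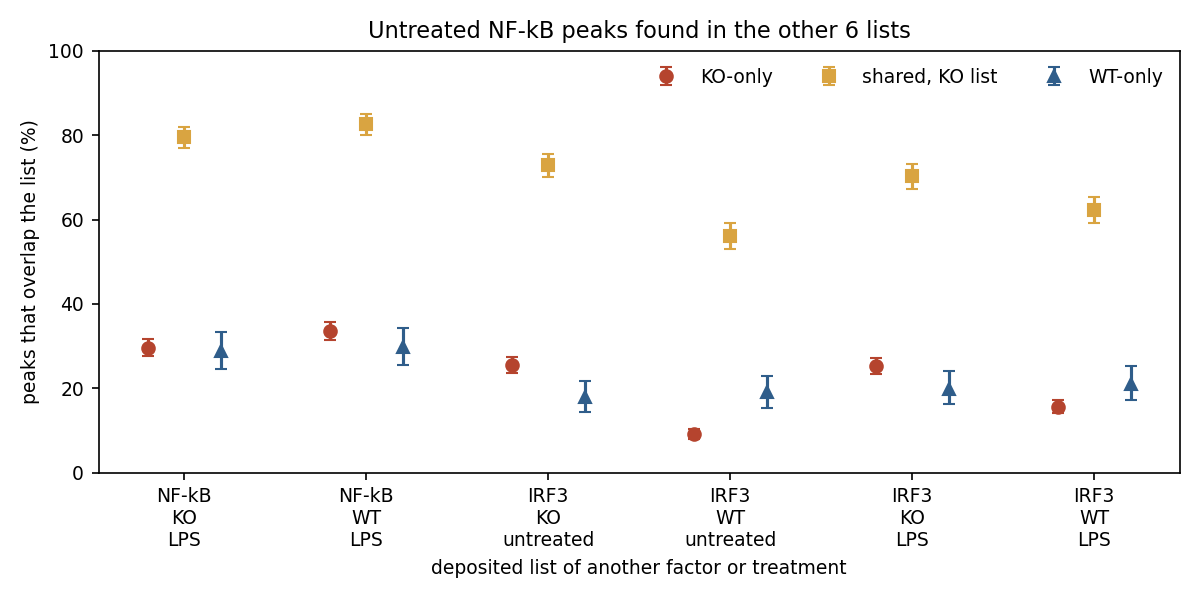
Share of KO-only peaks (red circles), shared peaks of the KO list (yellow squares) and WT-only peaks (blue triangles) that overlapped each of the other 6 lists (percent, vertical axis; lists on the horizontal axis, KO left of WT); bars are exact 95% intervals for counting error. KO-only peaks are at 25.5% for untreated KO IRF3 and 9.11% for untreated WT IRF3, while shared peaks lie between 56.1 and 82.6% in every list.

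Recurrence also followed rank. Of the 70 KO-only peaks at ranks 1 to 400, 68 (97.1%) were in another KO list and 65 (92.9%) in another WT list, 63 of them in WT NF-kB with LPS (90.0%). Of the 747 at ranks 2201 to 3065, 27.7% were in another KO list and 25.3% in another WT list, and 60.5% were in no other list. Among the 82 KO-only peaks with a q-value under 0.05, 77 (93.9%, 86.3 to 98.0%) were in another WT list and 0 were in no other list. The 843 KO-only peaks found nowhere else had a median width of 410 bp and a median q-value of 0.758, against 940.5 bp and 0.402 for the 1220 found in another list. For WT-only peaks the median widths were 298 bp for the 186 found nowhere else and 870.5 bp for the 250 found in another list.

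Positions repeated across KO lists and in no WT list were few. Of the KO-only peaks, 108 (5.24%, 4.31 to 6.29%) were in at least 2 other KO lists and in no WT list, and 33 (1.60%) were in at least 2 other WT lists and no other KO list. The mirror count among WT-only peaks was 24 in at least 2 other WT lists and no KO list (5.50%, 3.56 to 8.08%). In all 4 KO lists and no WT list there were 19 of the 2063 KO-only peaks (0.921%, 0.555 to 1.43%). They included peaks in Gm6351 (rank 452, q-value 0.0610), Pcnx2 (rank 649), Caps2 (rank 929), Frmd4a (rank 968), Cdca8, which encodes the mitotic protein borealin (rank 1003), Zfp991 (rank 1357) and Ptprk, which encodes a receptor tyrosine phosphatase (rank 1646). Abutting peaks near Myo3a (chr2:22164480-22165054 and chr2:22165055-22165434) count separately among the 19. Of the 436 WT-only peaks, those in all 4 WT lists and no KO list lay in A26c3, Zfp990 and Pdgfc, 2275 bp from Vmn1r53 and 83410 bp from Cdh8. These genes were named after their pattern had been seen.

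Peaks of every class lay mostly outside genes and far from promoters. Of the KO-only peaks 31.4% (29.4 to 33.4%) lay in a protein-coding gene, of shared KO peaks 31.8%, of shared WT peaks 31.8% and of WT-only peaks 27.5%. No protein-coding gene lay within 100 kb of 31.9% of KO-only and 32.6% of WT-only peaks. A transcription start lay within 10 kb of 8.04% of KO-only and 8.75% of WT-only peaks, at median distances of 94656 bp (KO-only) and 108269 bp (WT-only). The starts table used here holds no entry for chromosome 18. The X chromosome held 10.3% of KO-only peaks and 10.3% of WT-only peaks, beside 6.27% of the annotated span. No hairpin of the 1005 RefSeq miRNAs lay under a peak of either list.

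Only 8 KO-only peaks lay within 1 kb of the start of a protein-coding gene: those at Sp140, C130026I21Rik, Gm46340, Commd1, Sp110, Septin14, Pla2g4c and Obox2. The best-ranked of them was Sp140 (rank 983, q-value 0.230, 308 bp wide, 451 bp from the start), a peak that also lies inside Sp110. The 4 WT-only peaks within 1 kb of a start lay at Gm38704 (rank 385 of 1462, q-value 0.223), Gm52451, LOC115488023 and Hexdc. Among shared peaks that near a start, the best-ranked lay at Crebzf, which encodes a leucine zipper protein, with KO rank 75 (q-value 0.00120) and WT rank 241 (q-value 0.102).

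KO-only peaks were spread over 1256 windows of 1 Mb, and 776 of these windows held 1. A further 23 windows held 5 or more and together 203 KO-only peaks. The densest held Sfi1 and Osbp2 on chromosome 11, with 30 KO-only peaks, 24 of them under 500 bp, beside 3 WT peaks. A window with Sp110, Sp140 and Gm7592 on chromosome 1 had 20 KO-only peaks, 19 of them under 500 bp, beside 5 WT peaks. A window of Speer4 genes on chromosome 5 had 18 KO-only and 11 WT peaks, and neighbouring windows of Zfp genes on chromosome 4 had 11 KO-only peaks each, beside 6 and 10 WT peaks. Across chromosomes the KO list was longer than the WT list by a factor of 1.68 (chromosome 10) to 2.61 (chromosome 11).

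**Figure D4:**
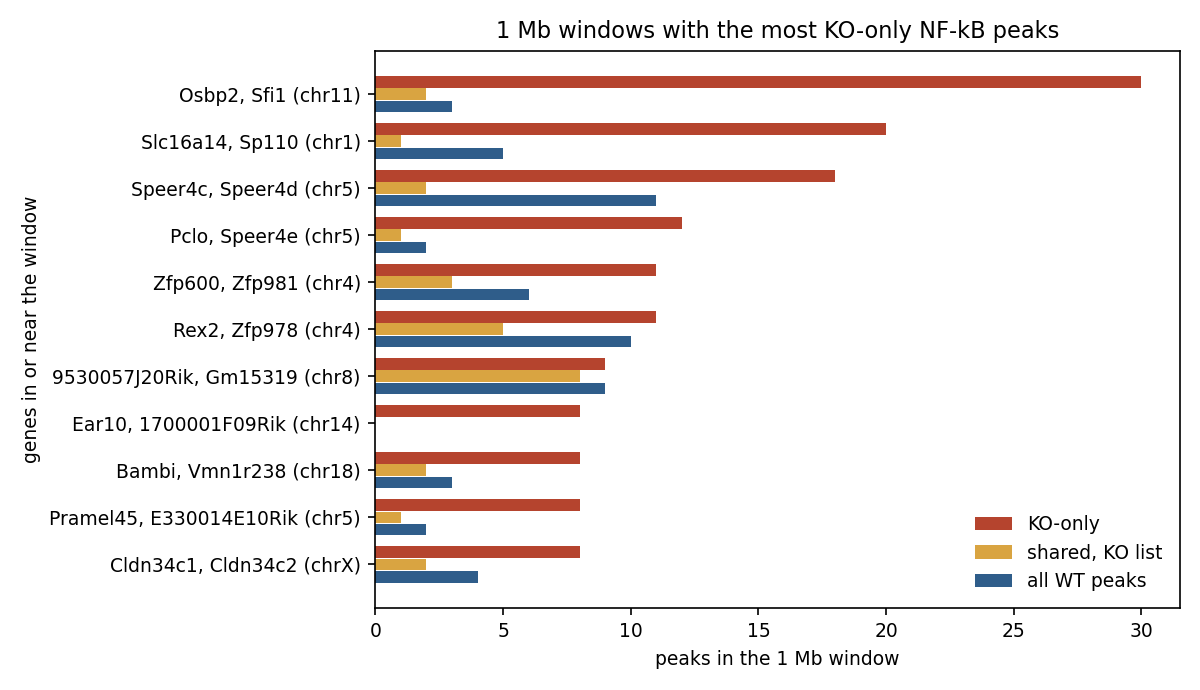
Number of KO-only peaks (red), shared peaks of the KO list (yellow) and all WT peaks (blue) in the 11 windows of 1 Mb with the most KO-only peaks, each named by up to 2 of the genes nearest to its peaks. The Sfi1 window holds 30 KO-only and 3 WT peaks, and the window with Ear10 on chromosome 14 holds 8 KO-only and 0 WT peaks.

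Gene families were counted over the peaks with a protein-coding gene within 100 kb, 1404 KO-only and 294 WT-only, each assigned to its nearest gene. Predicted genes with Gm or Rik names were nearest to 177 of these KO-only peaks (12.6%, 10.9 to 14.5%) and 39 of these WT-only peaks (13.3%, 9.61 to 17.7%), and make up 7.99% of protein-coding genes. Among shared peaks with such a gene they had 9.48% of 675 in the KO list and 9.13% of 690 in the WT list. On the same denominators, zinc finger genes had 35 KO-only (2.49%, 1.74 to 3.45%) and 16 WT-only peaks (5.44%, 3.14 to 8.69%), beside 1.97% of genes. Vomeronasal receptors had 32 KO-only (2.28%, 1.56 to 3.20%) and 13 WT-only peaks (4.42%, 2.38 to 7.44%), beside 1.62% of genes. The Mup, Speer, Scgb and Pramel families had 2.64% of KO-only and 3.74% of WT-only peaks, beside 1.28% of genes. Olfactory receptors, which make up 5.07% of genes, had 2.14% of KO-only and 2.38% of WT-only peaks.

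Gene lists on macrophages, NF-kB and DNA methylation were then set against all genes. Of 21883 protein-coding genes, 663 had a KO peak and no WT peak within 10 kb (3.03%), 117 had a WT peak and no KO peak (0.535%) and 420 had both (1.92%). In all, 1083 had a KO peak (4.95%) and 537 a WT peak (2.45%). At equal list length the counts of genes with a peak in KO alone and in WT alone were 248 and 210 with peaks ranked by p-value, and 227 and 237 with peaks ranked by signal value, so the order turned round with the ranking. Among the 431 listed genes matched, 10 had a KO peak alone, 2 a WT peak alone and 3 both. These counts are close to or under what all genes show, and nothing particular to the lists is read from them.

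Of the 41 genes of NF-kB subunits, inhibitors and signalling, 3 had a KO peak alone (7.32%, 1.54 to 19.9%, beside 3.03% of all genes), and none had a WT peak. The peaks lay in Ripk2, which encodes the kinase that relays NOD receptor signals (rank 1570, q-value 0.434, chr4:16125603-16126157), and in Map3k7, which encodes the kinase TAK1 upstream of the IkB kinases (rank 2728, q-value 0.893). The third lay 4211 bp from Nod1, which encodes a sensor of bacterial peptidoglycan (rank 1769, q-value 0.521). The Nod1 position was also in 4 other lists, WT NF-kB with LPS among them, and those in Ripk2 and Map3k7 were in no other list. With both lists reduced to q-values under 0.05 no gene of this list had a peak. Of all 21883 protein-coding genes only 129 then had a KO peak alone and 8 a WT peak alone, so nothing is read from this absence.

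Of the 24 Toll-like receptor and adaptor genes, Ly96 had a KO peak alone (4.17%, beside 3.03% of all genes) and Tlr2 had both (4.17%, beside 1.92%). Ly96 encodes MD-2, the protein that holds LPS on TLR4, and its KO peak lay 866 bp outside the gene (826 bp, rank 1258, q-value 0.312, chr1:16710472-16711297). The Tlr2 position, 5248 bp from the gene in KO and 5114 bp in WT, ranked 664 of 3065 in KO (q-value 0.121) and 1285 of 1462 in WT (q-value 0.894). TLR2 recognises bacterial lipoproteins. Of the 62 inflammatory NF-kB targets 0 had a peak in either list within 10 kb, which allows a share of up to 5.78% for each list. Over all genes 4.95% had a KO peak and 2.45% a WT peak, so this limit still includes both shares. Within 50 kb, 0 of the 62 had a KO peak alone, 1 had a WT peak alone and 1 had both. Of all 21883 protein-coding genes, 1489 had a KO peak alone and 270 a WT peak alone at that distance.

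Nucleic acid sensing had 2 of 23 genes with a KO peak alone (8.70%, 1.07 to 28.04%, beside 3.03% of all genes). With both lists reduced to q-values under 0.05 none of these 23 genes had a peak, where 129 of all 21883 genes had a KO peak alone and 8 a WT peak alone. The Ddx58 peak lay inside the gene for the RNA sensor RIG-I (785 bp, rank 1030, q-value 0.250, chr4:40235761-40236545). Tbk1, which encodes the kinase that activates IRF3, held 2 KO peaks, of 1462 bp at rank 1605 and of 304 bp at rank 2632. None of these 3 peaks was in any other list.

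Among 44 interferon-stimulated genes, Sp110 had KO peaks alone (2.27%, beside 3.03% of all genes) and Sp100 a WT peak alone (2.27%, beside 0.535%). Both genes encode nuclear body proteins of 1 gene cluster on chromosome 1. Sp110 had 6 KO peaks, between 192 and 378 bp wide and ranked 983 to 2851, and lies in the dense window described above. The peak at rank 983 is the same as that named above for Sp140. The Sp100 peak spanned 448 bp and ranked 1166 of 1462.

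The 39 macrophage identity genes had a KO peak alone at Mertk, which encodes a receptor for apoptotic cells (543 bp, rank 1742, q-value 0.515), and peaks of both genotypes near Fcgr1. Each is 2.56% of the list, beside 3.03% of all genes with a KO peak alone and 1.92% with both. Fcgr1 encodes the high-affinity IgG receptor. Its KO peak (rank 212, q-value 0.0137) and WT peak (rank 900, q-value 0.688) lay 9613 and 9604 bp from the gene, and the WT peak lay 998 bp from the start of the histone gene H2bc18. The alternative activation gene Chil3 had a WT peak alone (229 bp, rank 1405 of 1462). That is 1 of 15 listed genes (6.67%, 0.169 to 31.9%), beside 0.535% of all genes. The 25 genes of DNA methylation and demethylation, the 20 of mitochondrial DNA maintenance and the 16 of MHC and antigen presentation had no peak in either list. Over all genes 4.95% had a KO peak and 2.45% a WT peak. Of 35 histone modifiers, Nsd2, which encodes a histone lysine methyltransferase, had a KO peak alone (rank 824, q-value 0.172), which is 2.86%, beside 3.03% of all genes. Of 26 immediate early genes Dusp5, which encodes an ERK phosphatase, had both, which is 3.85%, beside 1.92% of all genes. Marker lists of T, B, NK, dendritic and erythroid cells and neutrophils had no peak in either list. The stromal list had 1 KO peak, in Lepr (1 of 10 genes, 10.0%, beside 3.03% of all genes).

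**Figure D5:**
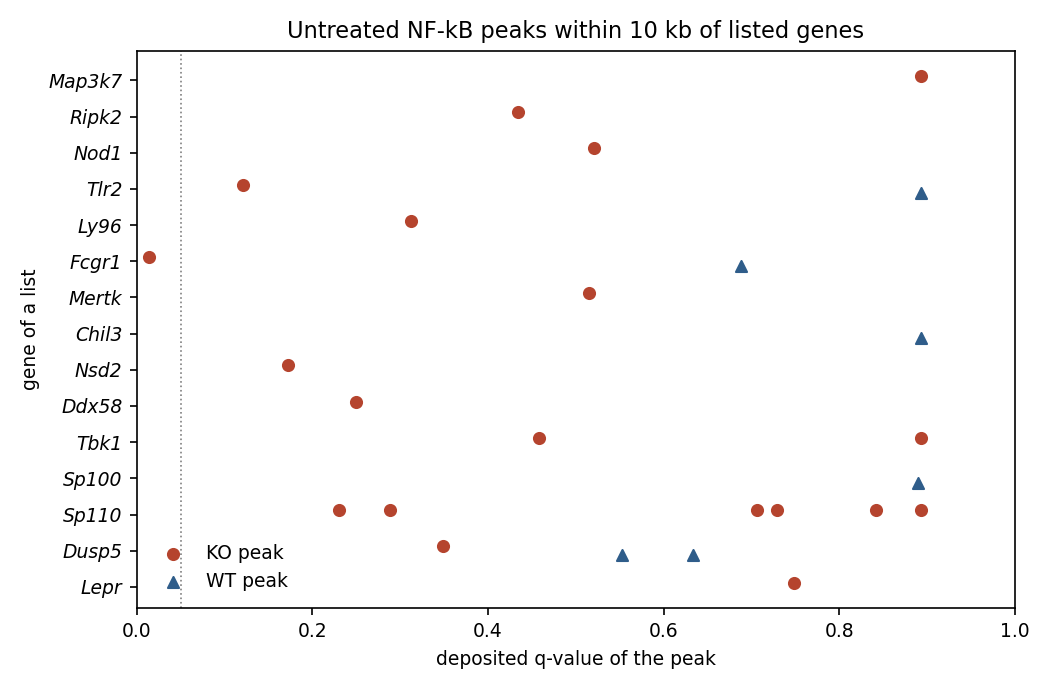
Deposited q-value (horizontal axis) of each untreated NF-kB peak within 10 kb of a gene of the lists (vertical axis), for KO peaks (red circles) and WT peaks (blue triangles); the dotted line marks a q-value of 0.05. The KO peak near Fcgr1 (0.0137) is the only one left of the line, and the peaks of genes with a KO peak alone start at 0.172 (Nsd2).

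The peak over Zrsr1 led to a check of 36 imprinted genes, a list written after that peak had been seen. A KO peak and no WT peak lay within 10 kb of 2 of them, Zrsr1 and Trappc9, and none had a WT peak. Trappc9, which encodes a trafficking protein linked to NF-kB signalling, held 2 KO-only peaks, of 1367 bp (rank 611, q-value 0.103, chr15:72996682-72998048) and of 762 bp (rank 1458, q-value 0.399). Neither was in any other list. The Zrsr1 peak prompted the list, so its place in the count was fixed in advance, which leaves Trappc9 alone. Trappc9 spans chr15:72589620-73061238, and a long gene has more room for a peak. No excess is therefore read from the count of 2 of 36 beside 3.03% of all protein-coding genes. The list also includes genes that are not protein-coding.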

How the data were processed

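NF-kB ChIP-seq of untreated KO and WT macrophages was analysed, 3 samples each. The authors deposited 1 peak list per group, which merges the samples per the labels, so paired or leave-one-out fits could not be made. Per the submitters' processing notes, coordinates are in mm10 and tools include MACS2 2.1.1 and HOMER 4.9, with no role given. For the aligner, the peak calling, the merging, the threshold and read depth nothing is recorded in the labels. Each deposited peak carries a score, a signal value treated as a score of unknown normalization, a p-value and a q-value, all the authors' own. If the lists come from a program that combines replicates by rank, the deposited p-values and q-values rate agreement between replicates, not the height over input. They served to rank peaks (by p-value, ties by signal value, width and position) and to filter them within a list.

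Overlaps, distances and exact intervals were computed with Python 3.11.15, pandas 2.3.3, NumPy 2.4.6 and SciPy 1.17.1, and the overlap counting was tested on simulated intervals. Peaks lay on chromosomes 1 to 19 and X, and printed positions are 1-based. Gene spans, promoter windows and miRNAs came from RefSeq tables on GRCm38.p6, the assembly named mm10. Named genes follow a rule: the 10 best-ranked KO-only, 10 WT-only and 6 shared peaks with a gene within 100 kb, the best 6 KO-only and 6 WT-only peaks under 500 bp, and every listed gene with a peak within 10 kb. The result for 1 of these genes is not reported here. The comparison, the gene lists and the rule were chosen with earlier results of these data known. Of 436 listed symbols 431 matched. No genome was used, so base composition within peaks was not analysed here.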

Additional observations from a re-analysis of the deposited data

How the results depend on the processing

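Of 83 values under other settings, 41 stayed within 1.5 times the main count, or within its interval, and 42 moved. The main values are shares of 32.7% (KO) and 70.2% (WT), 2063 KO-only and 436 WT-only peaks, 663 and 117 genes with a peak in KO alone and WT alone, and 47.8% of KO-only peaks in another KO list. With overlap of at least 50% of both peaks, the shares were 27.1% (KO) and 56.8% (WT), and 39.4% of KO-only peaks were in another KO list. With q-values under 0.05 in both lists the shares were 26.1 and 81.5%, with 312 KO-only and 25 WT-only peaks and 129 and 8 genes. With q-values under 0.5 the WT share was 75.4%, with 1166 KO-only and 175 WT-only peaks and 423 and 54 genes. At equal list length by p-value the shares were 50.7 and 53.6%, with 721 KO-only and 679 WT-only peaks and 248 and 210 genes; by signal value they were 50.2 and 52.2%, 728 and 699 peaks, 227 and 237 genes. There the order of the gene counts depended on the ranking. With peaks under 500 bp alone the shares were 4.14 and 11.1%, with 741 KO-only and 255 WT-only peaks, 260 genes in KO alone and 23.3% in another KO list. Without regions in all 8 lists the shares were 23.7 and 59.9%. Within 50 kb 1489 and 270 genes were counted. A gap of up to 1000 bp, a common p-value limit, joining abutting peaks and leaving out dense windows, of which the last 2 were added after seeing the data, moved no count by over 1.5 times. The q-value, width, list-length and recurrent-region settings remove peaks by construction. For the other values that moved the cause was not tested.

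No paired analysis was possible because each list merges its 3 samples; leaving out a sample was not possible for the same reason. The alternative window for base composition was not run. The depth of the libraries is unknown.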

Other observations

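The 6 best-ranked KO-only peaks under 500 bp with a gene within 10 kb lay at Tmem18 (379 bp, rank 201), in Sfi1 (400 bp at rank 544 and 248 bp at rank 754), in Ranbp3l (384 bp, rank 642), near Pisd, which encodes the mitochondrial phosphatidylserine decarboxylase (188 bp, rank 748), and in Shroom4 (494 bp, rank 801). The matching WT-only peaks lay near Vmn2r92 (170 bp, rank 294 of 1462), in Gm7592 (274 bp at rank 311 and 194 bp at rank 443), in Pramel47 (217 bp, rank 328), near Tmem229a (214 bp, rank 350) and in Wdr27 (219 bp, rank 471). Of all KO-only peaks under 500 bp, 482 of 710 (67.9%, 64.3 to 71.3%) were in none of the other 6 lists, and of WT-only peaks under 500 bp, 123 of 176 (69.9%, 62.5 to 76.6%).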
